A study of Mus musculus with 4 samples.

Results

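The genes described here are 35 mouse genes of DNA damage repair, taken by gene symbol from the 55401 genes of the deposited table. They were chosen by name to cover homologous recombination, break sensing and checkpoint signalling, end joining, base excision and single-strand break repair, mismatch repair, nucleotide excision repair and the Fanconi route. Each symbol was found on 1 row, all 35 are annotated as protein-coding, and all 35 passed the filter on low counts that left 11700 genes to test. The 4 RNA sequencing libraries came from cultured cells that the labels call female germline stem cells (FGSCs), from the ovary of C57BL/6 mice and with the condition given as normal. Both Control libraries were treated with the solvent DMSO and both Daidzein libraries with daidzein, a soy isoflavone, and no genetic change is named for either group. Dose, duration, the age of the mice and whether replicates were separate cultures are not given in the sources consulted. The p-values therefore reflect no more than the scatter among these 4 libraries, part or all of which may be technical.

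DNA repair works through routes that each recognise a kind of lesion. Double-strand breaks are either rejoined end to end or copied from the sister chromatid by homologous recombination, which runs mainly in S and G2 phase. Damaged or mispaired bases are cut out by the excision and mismatch routes, and links between strands are unhooked by the Fanconi route. Germ cells use a further set of meiotic proteins, several of which are related to the repair proteins of dividing somatic cells.

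Library totals ran from 16230400 to 18537134 counts, and a count of 0 allows up to 3 counts in a library, or 0.162 to 0.185 CPM, the usual scaling of a count by library size. The labelled cell type was checked first. Of 12 germ cell markers, 10 had at most 3 reads over all 4 libraries, and the summed level of the 12 was 0.21 to 0.38 FPKM in Control and 0.10 to 0.56 in Daidzein. FPKM scales the count to the kilobases of exon and to the library's total of counted reads. The germ cell helicase gene Ddx4 had 2 reads in Control replicate 1 and 0 elsewhere, and Dppa3 had 0 in every library. Fibroblast markers summed to at most 0.16 FPKM, epithelial markers to at most 0.39 and ovarian somatic markers to at most 2.54, with 0 reads for Foxl2 and Fshr. Of 10 mast cell markers, 4 stood above 1 FPKM, led by Cpa3, Gata2 and Kit. The list summed to 779 to 799 FPKM in Control and 794 to 824 in Daidzein, while Mcpt4, Tpsb2, Tpsab1 and Fcer1a had 0 reads. Macrophage markers summed to 49.6 to 49.9 FPKM in Control and 45.7 to 47.7 in Daidzein. Of these 8 markers, 3 had a mean of at least 1 FPKM and 5 lay under it, and 2 of the 5, Cd14 and C1qa, had 0 reads. The repair levels that follow are those of libraries with this make-up, and in bulk RNA fewer cells of a type and less RNA per cell cannot be told apart.

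All 35 repair genes were detected, each with 112 to 4628 reads per library and at least 1 FPKM in every library. Their median level was 6.08 FPKM, against 7.07 for all genes tested, and 15 of the 35 stood above the latter. Mean levels were at least 10 FPKM for 8 genes and under 5 FPKM for 15. Parp1 and Msh6 alone made up 27.1% of the summed FPKM of the 35. By route the median ran from 8.77 FPKM for base excision and single-strand breaks, through 8.28 for break sensing and checkpoint, 7.60 for nucleotide excision, 6.08 for mismatch repair and 4.11 for homologous recombination, to 3.84 for the Fanconi route and 2.25 for end joining. This order was the same in 3 libraries taken singly, and in Daidzein replicate 2 the first 2 routes changed places. With means in place of medians only 1 route kept its rank. The means of end joining and mismatch repair, 8.63 and 15.8 FPKM, are each raised by 1 abundant gene, Xrcc6 and Msh6. The order by medians thus describes the typical gene of a route and not its total.

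Levels per length depend on the length used. The deposited FPKM divides by the exonic size over all isoforms, which ran from 0.998 to 3.55 times the longest protein-coding transcript in GENCODE M21. With the latter length, an alternative chosen after seeing the data, 3 of 7 routes kept their rank, and homologous recombination and end joining then had medians of 6.68 and 6.15. The Fanconi route was then the lowest, with a median of 4.77. Nucleotide excision, at 13.6, then stood above break sensing and checkpoint, at 10.4. Parp1, Msh6 and Xrcc6 were the 3 highest and Lig4, Prkdc and Fanca the 3 lowest genes on both scales.

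**Figure D1:**
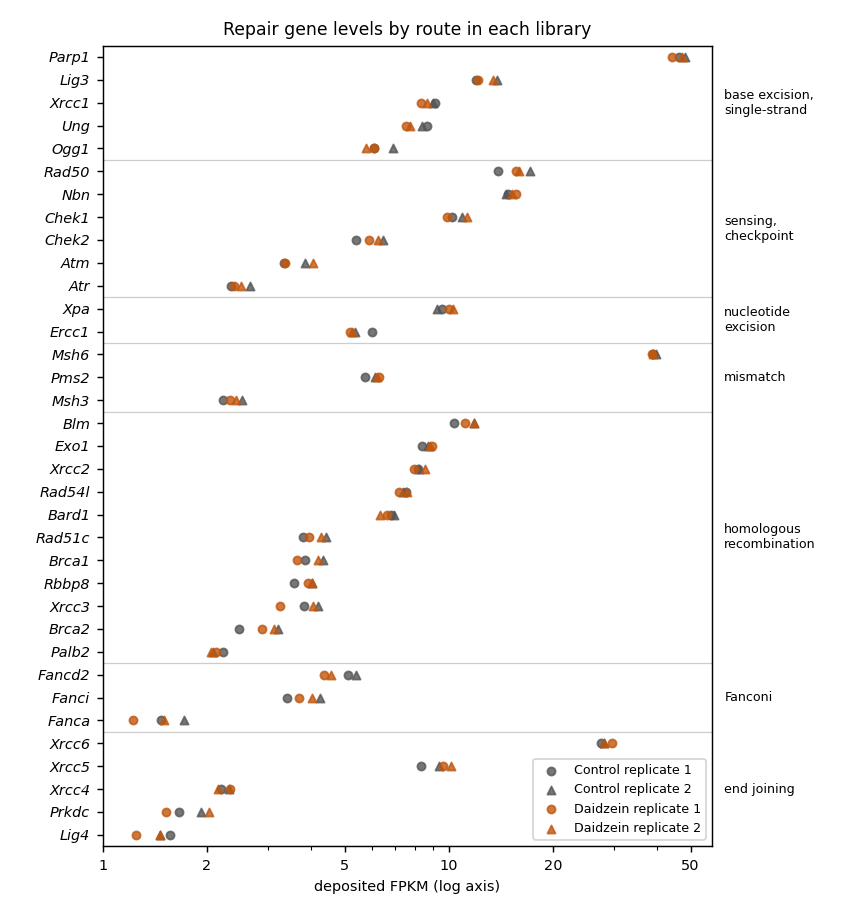
Deposited FPKM (log axis) of the 35 repair genes in each of the 4 libraries, grouped by route and sorted by mean level within a route. Circles are replicate 1 and triangles replicate 2, grey for Control and orange for Daidzein. Levels span from under 2 FPKM (Lig4, Fanca, Prkdc) to above 40 (Parp1), and the 4 points of a gene lie close together on that scale.

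In base excision and single-strand break repair, Parp1, which senses strand breaks and builds poly(ADP-ribose) chains, was the most abundant gene of the 35. Parp1 (ENSMUSG00000026496) lies at chr1:180568924-180601254 on the plus strand of GRCm38. It stood at 46.15 and 48.02 FPKM in Control and 44.21 and 47.17 in Daidzein, higher than 88.0% of all genes tested. Lig3, the ligase that seals single-strand nicks, stood at 12.01 and 13.81 FPKM in Control and 12.15 and 13.38 in Daidzein. Its scaffold partner Xrcc1 stood at 9.11 and 9.0 against 8.31 and 8.67. The ligase is thus the higher of this pair per exonic kilobase, by 1.32 to 1.54 times, but the lower of it per kilobase of longest coding transcript, at 0.699 to 0.818 times. Ung, which removes uracil from DNA, stood at 8.65 and 8.39 FPKM in Control and 7.53 and 7.74 in Daidzein, and Ogg1, which removes oxidised guanine, at 6.09 and 6.89 against 6.06 and 5.75.

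In mismatch repair, Msh6 and Msh3 encode alternative partners of 1 shared MutS subunit, Msh6 for single mispairs and Msh3 for larger loops. Msh6 (ENSMUSG00000005370, chr17:87975062-87990892, plus strand) stood at 39.01 and 39.68 FPKM in Control and 38.56 and 38.91 in Daidzein, and was the gene with the smallest difference between replicates. Msh3 stood at 2.22 and 2.52 FPKM in Control and 2.33 and 2.43 in Daidzein. The ratio of Msh6 to Msh3 was 15.7 to 17.6 over the 4 libraries per exonic kilobase and 5.65 to 6.29 per kilobase of longest coding transcript, so Msh6 led on both scales. Pms2, the endonuclease subunit that acts after mismatch recognition, stood at 5.72 and 6.10 FPKM in Control and 6.30 and 6.21 in Daidzein.

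End joining held both the third highest gene of the 35, Xrcc6, and the lowest, Lig4. Xrcc6 and Xrcc5 encode Ku70 and Ku80, the subunits of the ring that first binds a broken end. Xrcc6 (ENSMUSG00000022471, chr15:81987835-82040085, plus strand) stood at 27.50 and 28.08 FPKM in Control and 29.69 and 28.11 in Daidzein, and Xrcc5 at 8.31 and 9.35 against 9.63 and 10.12. Although the proteins work as a pair, the Xrcc6 transcript was 2.78 to 3.31 times as abundant per exonic kilobase and 3.78 to 4.50 times per kilobase of longest coding transcript. The later steps were low per exonic kilobase. Prkdc, the kinase recruited by Ku, stood at 1.66 and 1.92 FPKM in Control and 1.52 and 2.02 in Daidzein. Lig4, the ligase of this route, was the lowest of the 35 at 1.56 and 1.46 against 1.25 and 1.46, and its partner Xrcc4 stood at 2.19 and 2.32 against 2.33 and 2.15. Per kilobase of longest coding transcript Prkdc and Lig4 stayed low, with means of 1.86 and 1.48, while Xrcc4 stood at 6.15.

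Among the break sensors and checkpoint kinases, Rad50 and Nbn, which belong to the complex that tethers broken ends, were at similar levels. Rad50 stood at 13.90 and 17.20 FPKM in Control and 15.65 and 15.94 in Daidzein, and Nbn at 14.81 and 14.62 against 15.66 and 15.27. The effector kinase Chek1, activated by Atr at stalled forks, stood at 10.18 and 10.90 FPKM in Control and 9.89 and 11.31 in Daidzein. Chek1 was 1.68 to 1.89 times Chek2 per exonic kilobase and 1.55 to 1.75 times per kilobase of longest coding transcript. Chek2, activated by Atm at breaks, stood at 5.38 and 6.44 against 5.89 and 6.26. The apical kinases were lower than their effectors per exonic kilobase, with Atm at 3.33 and 3.83 FPKM in Control and 3.35 and 4.04 in Daidzein and Atr at 2.34 and 2.67 against 2.40 and 2.50. Atm was above Atr on this scale, by 1.40 to 1.62 times, and below it per kilobase of longest coding transcript, at 0.504 to 0.583 times, so their order is not settled by these data.

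In homologous recombination Blm and Exo1 led and Brca2 and Palb2 trailed, per exonic kilobase. Per kilobase of longest coding transcript Blm still led and Brca2 and Palb2 still trailed. On that scale Rad54l, Rbbp8 and Xrcc2, with means of 18.9, 13.8 and 13.2, stood above Exo1 at 9.41. Blm, a helicase that dissolves joint molecules, stood at 10.37 and 11.86 FPKM in Control and 11.14 and 11.84 in Daidzein, and Exo1, which resects ends, at 8.35 and 8.73 against 8.93 and 8.83. Rbbp8, whose product CtIP starts resection, stood at 3.56 and 4.02 FPKM in Control and 3.92 and 4.02 in Daidzein. Rad54l, a motor protein of strand exchange, stood at 7.54 and 7.39 against 7.16 and 7.55. Of the 3 genes among the 35 that encode relatives of the strand exchange protein, Xrcc2 was highest, at 8.16 and 8.19 FPKM in Control and 7.93 and 8.51 in Daidzein. Rad51c stood at 3.79 and 4.40 against 3.95 and 4.28, and Xrcc3 at 3.81 and 4.18 against 3.26 and 4.04. These latter 2 overlapped in their library values and are not ordered here. Bard1, the partner of Brca1 in a ubiquitin ligase, stood at 6.80 and 6.96 FPKM in Control and 6.63 and 6.34 in Daidzein. Brca1 stood at 3.83 and 4.34 against 3.63 and 4.18. Bard1 was 1.52 to 1.83 times Brca1 per exonic kilobase and 1.17 to 1.41 times per kilobase of longest coding transcript. Brca2, which loads the strand exchange protein, stood at 2.47 and 3.20 FPKM in Control and 2.88 and 3.13 in Daidzein, and Palb2, which links Brca2 to Brca1, at 2.22 and 2.08 against 2.12 and 2.05. Brca2 was the higher of that pair by 1.11 to 1.54 times per exonic kilobase, but not per kilobase of longest coding transcript, at 0.723 to 1.00 times.

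The remaining routes are represented by few genes. Of the nucleotide excision genes, the damage verifier Xpa stood at 9.53 and 9.25 FPKM in Control and 10.01 and 10.28 in Daidzein, and Ercc1, the partner of a structure-specific nuclease, at 5.98 and 5.35 against 5.18 and 5.24. Of the Fanconi genes, Fancd2 stood at 5.11 and 5.39 FPKM in Control and 4.35 and 4.55 in Daidzein. Its partner Fanci, with which it forms a clamp on DNA, stood at 3.40 and 4.24 against 3.70 and 4.02. Fanca, a subunit of the core complex that ubiquitinates this clamp, stood at 1.47 and 1.71 against 1.22 and 1.50. Only Fancd2 had groups that did not overlap in this route. Both its Daidzein values lay below both Control values, as they did for 15% of all genes tested.

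The 35 genes were set against the rest of their pathways and against meiotic recombination. Of 122 other repair genes listed, 111 had a mean of at least 1 FPKM, with a median of 7.63, and 118 were tested. Of 29 meiotic recombination genes, 26 were under 1 FPKM and 14 had 0 reads in every library, among them Dmc1, the meiotic strand exchange protein, and Spo11, which makes meiotic breaks. Sycp3, of the chromosome axis, had 1 read in Daidzein replicate 2 and 0 elsewhere. The 3 meiotic genes above 1 FPKM were Syce2 at 39.8, Psmc3ip at 17.6 and Mnd1 at 16.2 FPKM. All 21 listed proliferation genes were above 1 FPKM, with Pcna, the replication clamp, at 224 to 228 FPKM and Mki67 at 20.7 to 26.0.

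**Figure D2:**
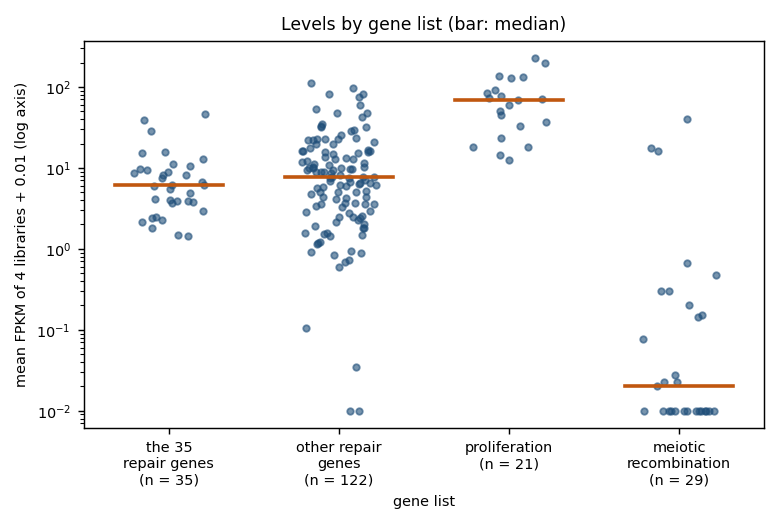
Mean FPKM over the 4 libraries, plus 0.01 so that genes at 0 can be drawn on the log axis, for 4 gene lists. Each point is a gene and the orange bar is the list's median. The medians of the 35 repair genes and of the 122 other repair genes, 6.08 and 7.63, lie close together, the others reach both higher and lower, and 26 of the 29 meiotic recombination genes lie under 1 FPKM.

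The promoters were examined because many repair genes are transcribed with the cell cycle. RefSeq promoter windows on GRCm38.p6, from 250 bases before to 50 after the start, were matched for 28 of the 35 genes. An E2F-type motif was searched on both strands as the letters TTTGGCGC, TTTCCCGC, TTTCGCGC or TTTGCCGC. E2F factors are regulators of S phase genes. The motif was in 7 of the 28 genes, or 25%, against 5.09% of 8680 tested genes with a window and 2.6% of all 27025 genes with one. The 7 were Brca2, Bard1, Rad51c, Chek2, Xrcc6, Msh3 and Msh6. The following stretches, from genes of 3 routes, show the letters as they lie upstream of the RefSeq start, with the motif in capitals on the strand of the gene. For Bard1, Chek2 and Xrcc6 that start lies inside the gene's annotated span. Of the stretches shown, only that of Xrcc6 lies inside the span itself, and a longer annotated transcript of the same gene runs through it. In Brca2, Chek2 and Xrcc6 the motif reads on the opposite strand.
Bard1 (chr1:71103154-71103201, minus strand): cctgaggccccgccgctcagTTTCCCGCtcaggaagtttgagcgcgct
Brca2 (chr5:150522433-150522480, plus strand): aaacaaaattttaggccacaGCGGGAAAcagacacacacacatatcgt
Chek2 (chr5:110839811-110839858, plus strand): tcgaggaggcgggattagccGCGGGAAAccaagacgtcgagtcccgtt
Xrcc6 (chr15:82016312-82016341, plus strand): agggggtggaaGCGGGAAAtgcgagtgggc

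The GC box (GGGCGG, both strands) was in 75% of the 28 genes and 70.2% of tested genes with a window, and the letters CCAAT, also on both strands, were in 53.6% and 43.7%. A match describes letters in the window and no binding was measured here. The 7 genes with the E2F-type letters had log2 differences between Daidzein and Control from -0.09 (Bard1) to 0.08 (Brca2).

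Position in the genome was examined next. Of the 35 genes, 14 (40%) had a protein-coding neighbour on the other strand whose annotated 5′ end lay within 1000 bases of their own, against 18.6% of 10345 protein-coding genes tested. Prkdc faces Mcm4, of the replicative helicase. Atm faces Npat, a regulator of histone genes, Brca1 faces Nbr1 and Palb2 faces Dctn5. In 12 of the 14 pairs the neighbour had the higher FPKM per exonic kilobase. The same share over all such pairs was not computed, nor were neighbour levels per kilobase of longest coding transcript. Prkdc at 1.78 FPKM stood beside Mcm4 at 69.5, and Palb2 at 2.12 beside Dctn5 at 16.3. The neighbours' log2 differences between Daidzein and Control shared the sign of the repair gene's in 6 of 13 tested pairs, and 0 of the 13 passed edgeR's test.

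The comparison of Daidzein with Control asks whether transcripts of these repair genes differ after the isoflavone. None of the 35 passed edgeR's quasi-likelihood test at a Benjamini-Hochberg adjusted p of 0.05 over all 11700 genes, where 0.0171% of genes passed, the 2 AP-1 genes Fos and Fosb. At an unadjusted p under 0.05 there was 1 of the 35, or 2.86%, against 2.91% of all genes, and it was Fancd2. DESeq2 and limma on log2 FPKM also called 0 of the 35, each with Fancd2 as the 1 gene at an unadjusted p under 0.05. The share of all genes at that level was 0.692% by DESeq2 and 3.94% and 3.9% by limma with a pseudocount of 1 and 0.1. With Daidzein 17 genes were higher and 18 lower, or 48.6% higher against 48.7% of all genes, and the median log2 difference was -0.01, against -0.0027 for all genes. Without Control replicate 1 only 8 were higher and the median was -0.08, and without Control replicate 2 it was 22 and 0.06.

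Single differences were small and bounded. Log2 differences ran from -0.24 (Fancd2) to 0.16 (Xrcc5). The 95% interval of the fold, not adjusted over genes, lay inside 0.667 to 1.5 for all 35 genes, against 80.1% of all genes tested, and inside 0.8 to 1.25 for 26 of them, against 59.8%. Intervals widen at low read counts. All 35 genes passed a filter of 5 CPM, which kept 9451 genes, against 11700 in the main test. The shares are thus not matched for read count, and no greater stability of the repair genes is concluded. The lowest lower bound was 0.698 for Fanca and the highest upper bound 1.30 for Xrcc5. Groups did not overlap for 5 genes higher with Daidzein (14.3% of the 35, against 14.7% of all genes) and for 7 lower (20%, against 15%). The former were Exo1, Nbn, Xrcc5, Pms2 and Xpa, and the latter Bard1, Xrcc1, Ung, Ogg1, Msh6, Ercc1 and Fancd2.

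**Figure D3:**
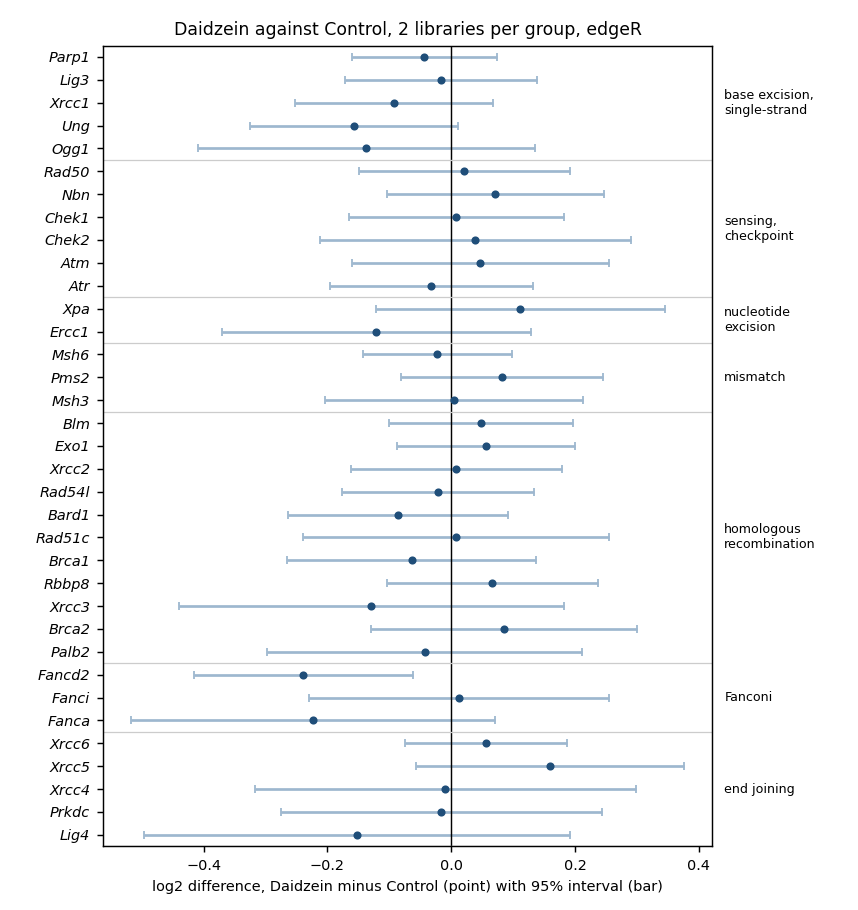
Log2 difference between Daidzein and Control for each repair gene (point) with its 95% interval from edgeR (bar), 2 libraries per group, grouped by route as in the plot of levels. The interval of Fancd2 alone leaves out 0, and none of the 35 genes passed after adjustment over all genes tested.

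Fancd2, the monoubiquitinated clamp subunit of the Fanconi route, had the largest difference of the 35. The deposited table places it (ENSMUSG00000034023) at chr6:113531682-113597017 on the plus strand, in GRCm38 coordinates. Normalised levels were 41.7 ± 1.39 CPM in Control and 35.3 ± 0.822 in Daidzein (SD, n = 2 each). The fold was 0.847, and its 95% interval ran from 0.750 to 0.958. The unadjusted p was 0.0108 and the adjusted p 1.00 by edgeR. The log2 difference, -0.24, stayed between -0.27 and -0.20 with each library left out, and the adjusted p ran from 0.424 to 1.00 over all alternatives. An annotated antisense gene, Fancd2os, shares 256 bases with it and had 0 reads. The ratio of Fancd2 to Fanci FPKM was 1.50 and 1.27 in Control and 1.18 and 1.13 in Daidzein, since Fanci had a fold of 1.01 (0.853 to 1.19). Fanca had a fold of 0.856 (0.698 to 1.05), and its log2 difference of -0.22 was -0.09 without Daidzein replicate 1. Of the 14 other Fanconi genes tested, 8 were higher and 6 lower and 0 passed by edgeR.

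In base excision and single-strand break repair all 5 genes were lower with Daidzein, by little, and 0 passed. Ung had a fold of 0.897 (0.798 to 1.01), from 46.6 ± 1.28 to 41.8 ± 0.509 CPM (SD, n = 2 each), with an unadjusted edgeR p of 0.0645. Lig3 had a fold of 0.988 (0.888 to 1.10), and its log2 difference of -0.02 was 0.08 without Control replicate 2 and 0.04 without Daidzein replicate 1. Xrcc1 had a fold of 0.938 (0.840 to 1.05), Ogg1 of 0.909 (0.753 to 1.10) and Parp1 of 0.970 (0.895 to 1.05). Of 15 other genes tested in this route, 10 were higher and 5 lower, with a median log2 difference of 0.06, so the wider list did not share the direction of the 5. Polb, the gap-filling polymerase, had a fold of 1.12 (0.983 to 1.28) and Apex1, the abasic site nuclease, of 0.981 (0.891 to 1.08).

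In end joining, Xrcc5 had a fold of 1.12 (0.962 to 1.30) and Xrcc6 of 1.04 (0.949 to 1.14), while Lig4 had a fold of 0.900 (0.708 to 1.14) and Prkdc of 0.989 (0.826 to 1.18). In homologous recombination 6 genes were higher and 5 lower, but 3 and 8 without Control replicate 1, and 9 and 2 without Daidzein replicate 1. Xrcc3 had a fold of 0.914 (0.737 to 1.13), Bard1 of 0.942 (0.833 to 1.07), Brca2 of 1.06 (0.914 to 1.23) and Brca1 of 0.957 (0.832 to 1.10). The log2 difference of Brca2, 0.08, was -0.08 without Control replicate 1 and 0.28 without Control replicate 2. Of 29 other genes of this route, 11 were higher and 18 lower, against 17 and 12 without Daidzein replicate 2, and Rpa1, which coats single-stranded DNA, had a fold of 0.966 (0.891 to 1.05).

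Among the sensors and checkpoint kinases 5 were higher and 1 lower, with folds from 0.978 for Atr to 1.05 for Nbn. Without Control replicate 1 this turned to 1 higher and 5 lower, and without Daidzein replicate 2 it was 3 and 3. Atm had a fold of 1.03 (0.895 to 1.19), Chek1 of 1.01 (0.891 to 1.14) and Chek2 of 1.03 (0.863 to 1.22). In the mismatch route the folds were 0.984 (0.906 to 1.07) for Msh6, 1.00 (0.868 to 1.16) for Msh3 and 1.06 (0.945 to 1.19) for Pms2. Of the nucleotide excision genes, Xpa had a fold of 1.08 (0.919 to 1.27) and Ercc1 of 0.920 (0.774 to 1.09), and among 22 others 15 were higher and 7 lower. The other repair genes as a whole counted 61 higher and 57 lower among 118 tested, with 0 past edgeR's threshold and 0 at an unadjusted p under 0.05.

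Readouts of damage signalling and division did not pass either. Of 13 tested p53 targets, 6 were higher and 7 lower, or 8 and 5 with either one of the Control libraries left out. Cdkn1a, the cell cycle inhibitor p21, had a log2 difference of -0.08 and Mdm2, the p53 ligase, of 0.04. Of 21 proliferation genes, 8 were higher and 13 lower, with a median log2 difference of -0.0032, and without Daidzein replicate 2 this turned to 13 and 8. In both lists 0 genes passed and 0 had an unadjusted p under 0.05 by edgeR. Transcript levels do not measure repair activity, phosphorylation or breaks.

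Replicates of a group differed by more than the groups did for most repair genes, as for most genes tested. The group difference compares means of 2 libraries and the replicate difference single libraries. The former is therefore expected to be the smaller even without an effect, and no conclusion is drawn from this. The median size of the log2 difference between groups was 0.06 for the 35, and that between the replicates of a group 0.11, against 0.06 and 0.11 for all genes tested. The group difference was smaller than the mean replicate difference for 23 of the 35 genes, and for 70.8% of all genes. Prkdc had the largest replicate difference, with log2 values of 0.20 between the Control libraries and 0.40 between the Daidzein libraries, and Fanca, Brca2 and Atm followed.

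**Figure D4:**
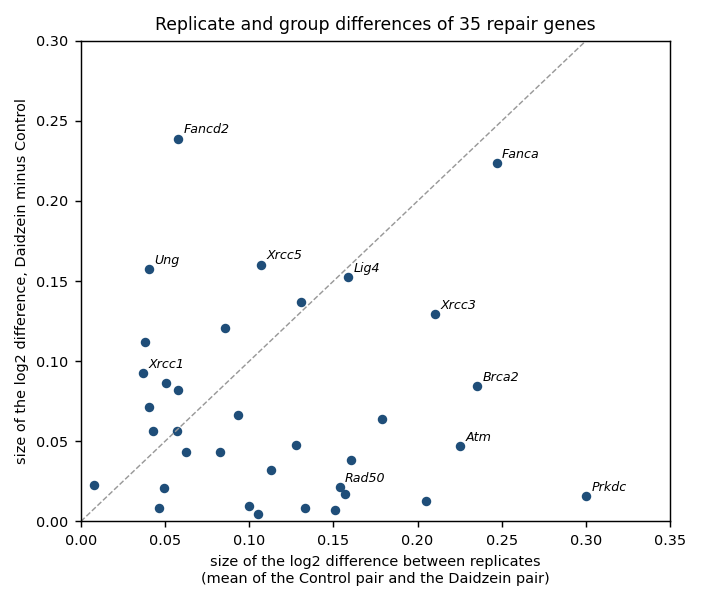
Size of the log2 difference between Daidzein and Control against the mean size of the log2 difference within the Control pair and the Daidzein pair, 1 point per repair gene. On the dashed line both are equal, and 23 of the 35 genes lie below it. The group difference was likewise the smaller for 70.8% of all genes tested. Fancd2, Ung and Xrcc5 lie above the line, while Prkdc, Brca2 and Atm lie far below.

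The replicate differences ran the same way in both groups for 21 of the 35 genes (60%), against 59.2% of all genes tested. The level was higher in replicate 2 than in replicate 1 for 26 genes in Control and 26 in Daidzein, with 19 genes (54.3%) higher in both and 2 (5.71%) lower in both. Over all genes 29.9% were higher and 29.3% lower in both. Transcript length moved with this pattern. Of the 12 repair genes whose longest coding transcript is at least 5000 bases, 8 (66.7%) were higher in replicate 2 of both groups and 0 lower in both. Of the 23 shorter ones 11 (47.8%) were higher and 2 lower. Over all genes tested 58.5% of 2133 long ones were higher in both, against 22.9% of 8203 shorter ones. The repair genes thus stood further above all genes among the shorter ones than among the long ones. Of 118 other repair genes 33.9% were higher in both, and of 21 proliferation genes 6 were higher and 6 lower in both. The labels give same-numbered libraries no shared batch, and the part of length in the replicate differences was not tested further. With the replicate number as a block in the edgeR fit 0.231% of all genes passed, and 0 of the 35. At an unadjusted p under 0.05 there were then 2 of the 35, or 5.71%, against 6.39% of all genes. They were Ung, with 0.0341, and Fancd2, and the adjusted p was 0.737 for Ung and 0.424 for Fancd2.

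**Figure D5:**
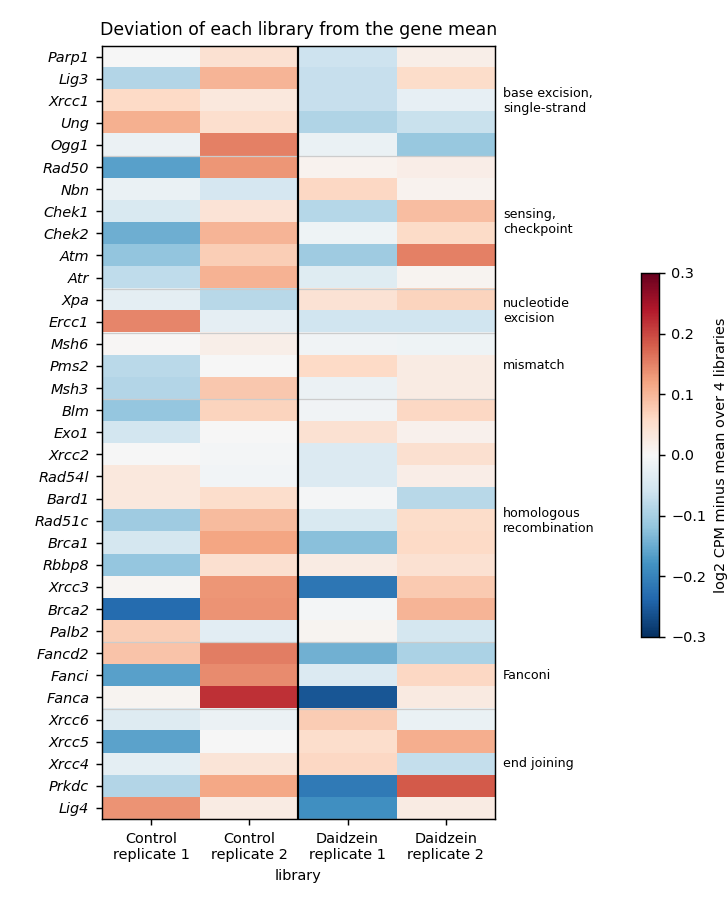
Log2 CPM of each repair gene in each library minus the gene's mean over the 4 libraries (red above, blue below), grouped by route. The median deviation of the 35 genes was -0.04 and 0.05 in the first and second Control library and -0.04 and 0.02 in the first and second Daidzein library. These medians of the 35 genes thus differed more by replicate number than by treatment.

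For 19 of the 35 genes an annotated exon overlaps that of another gene, and without the strand setting those reads cannot be told apart. The longest shared stretch in the longest coding transcripts was 1826 bases of Lig3 with its antisense neighbour Rffl. Apart from such overlapping genes, no other transcript matched any of the 35 over at least 200 bases at 95% identity.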

How the data were processed

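RNA sequencing of 4 libraries of mouse cells was used, 2 per group, grouped by their titles. The deposited table holds raw read counts per gene, as its values show, and FPKM values by the authors, and 100% of the FPKM values with a read lay within 0.01 of those rebuilt from count, exonic size and library total. Per the submitters' processing notes, the tools included HTSeq 0.6.1, HISAT2 2.0.1 and DESeq2. The same notes list mm9 as the build but do not tie any of these to a step. The strand setting is not given in the sources used here. Coordinates in the table are those of GRCm38: 99.61% of 55141 genes matched to GENCODE M21 had the same start.

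The test on counts was that of edgeR 4.0.16 under R 4.3.3 (quasi-likelihood F test, TMM, filterByExpr, Benjamini-Hochberg over 11700 genes, threshold 0.05). CPM values with an SD are TMM-normalised, and deviations of single libraries use the same scale. Fold intervals are 95% intervals from that fit. Steps were tested on simulated data. Alternatives were DESeq2 1.42.0, RLE factors, no filter, a filter of 5 CPM, the replicate block, limma 3.58.1 on log2(FPKM + 1) and log2(FPKM + 0.1), and each library left out. Similar transcripts were searched with blastn 2.17.0.

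All 35 genes are named by rule, as are Fos and Fosb and, from other lists, the genes with the smallest p or highest FPKM and set defining genes. Cd14, C1qa, Mcpt4, Tpsb2, Tpsab1, Fcer1a and the neighbouring genes were named after their values were seen. Members and lists were chosen with earlier results of these data known.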

Additional observations from a re-analysis of the deposited data

How the results depend on the processing

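The count of repair genes past the threshold stayed at 0 of 35 under all 11 alternative fits, as did those of the other repair genes and of the meiotic, proliferation and p53 lists. Over all genes the count of 2 was 1 by DESeq2 and with the 5 CPM filter, 11 without a filter, 0 by limma on FPKM with either pseudocount (461 and 456 at an unadjusted p under 0.05), and 4 to 17 with a library left out, where a lone library is assumed to vary like the others. A replicate block gave 27. Deviations of libraries with the same number correlated at 0.09 in 2 pairs, and no label pairs them. A chi-square per degree of freedom between the counts of 2 libraries is lower where they are more alike. It was 3.51 between the replicate 1 libraries of the 2 groups and 2.23 between the replicate 2 libraries. Within Control it was 4.17 and within Daidzein 4.38. For libraries unlike in both group and number it was 4.81 and 4.05. The 17 repair genes higher with Daidzein became 8 to 22, and their median log2 difference -0.0757 to 0.0587, with a library left out. Of 385 recomputed values of single repair genes 0 passed, and 28 changed sign, all with a library left out; 16 genes kept 1 sign throughout. Of 7 routes, 1 kept its rank by means and 3 with the longest coding transcript as length. The cause of these changes was not tested.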
